A study of Mus musculus with 48 samples.

Results

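The comparison concerns liver RNA of mice that kept their gonads and carried 2 X chromosomes, 6 of them with ovaries (genotype XX, written XX Ov) and 6 with testes (genotype XX;SryTg, written XX Te). These 12 mice were chosen by the genotype and treatment given in the sample descriptions and make up 12 of the 48 liver libraries of the series. All 48 mice belong to the FCG mouse model, which crosses gonad type with sex chromosomes, in which the testis-determining gene Sry is deleted from the Y chromosome and is supplied by a transgene on an autosome, so that the gonads do not follow the X and Y chromosomes. Both groups received a high-fat diet (HFD) with 60% of calories from fat from 15 to 17 weeks of age for 11 weeks by the labels, and neither underwent gonadectomy (GDX). The methods of the study give other durations of the diet, and the durations here are those of the labels. The groups thus share their XX chromosomes, their diet and their intact gonads, and differ in gonad type and in the presence of the Sry transgene, which cannot be told apart here. The other 36 libraries come from intact XY mice with the same gonad types and from mice that underwent GDX at 75 days of age and then received 15 weeks of HFD. Intact XY mice (6 with ovaries, 6 with testes) and XX GDX mice (6 formerly with ovaries, 6 formerly with testes) were used for comparison. Each mouse gave 1 library, and p-values measure the spread between mice.

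In mouse liver, many genes for metabolism of steroids and foreign compounds differ between the sexes. The known route runs through the pituitary: testes impose intermittent pulses of growth hormone in adult males, whereas females have a more continuous level, and the transcription factor STAT5 passes this pattern on to liver genes. Repressors such as CUX2, which is made in female liver, and BCL6, which is higher in male liver, act on the same genes. Major urinary proteins, sulfotransferases and several cytochrome P450 families are the best-known targets.

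Per mouse, 16227797 to 19423492 reads were counted on genes, so that 3 reads, the floor used here, correspond to 0.154 to 0.185 CPM (the reads of a gene scaled to a common total of reads on genes). Hepatocyte transcripts were abundant in all 12 libraries, with Alb between 50411 and 106942 CPM, and Xist, which is transcribed from the inactive X, was present in every one (123 to 847 CPM). Sry had 0 reads in all 12, so the transgene could not be checked by its own transcript. One library labelled XX Te (XX Te mouse 4) held reads of 4 Y-linked genes, with Eif2s3y at 3.88 CPM and Ddx3y at 3.82 CPM, whereas the other 11 had at most 0.381 CPM of either. XX Te mouse 5 had 0 reads of Pnpla3. XX Te mouse 2 had the highest summed level of 20 Kupffer cell and macrophage genes (1651 CPM, against 414 to 562 CPM in the other XX Te mice). XX Ov mice 1, 2 and 6 held relatively little RNA from long genes, with a log2 ratio of long to short transcripts between -0.80 and -0.42, against -0.10 to 0.69 in the other 9.

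A small set of liver genes differed, often strongly, between XX mice with ovaries and with testes. Of 14322 genes tested with edgeR's quasi-likelihood test (Benjamini-Hochberg adjusted p under 0.05, a model with 1 mean for each of the 4 intact groups), 344 differed between XX Ov and XX Te, which is 2.4% of those tested. In XX Ov mice 167 of them were higher (1.17%) and in XX Te mice 177 (1.24%). The differences were large: 237 of the 344 were at least 2-fold, 122 at least 4-fold and 45 at least 16-fold, 23 of these higher with ovaries and 22 with testes. In 203 of the 344 the 6 XX Ov mice and the 6 XX Te mice did not overlap in CPM, compared with 1.86% of all genes tested. Log2 fold changes are given throughout as XX Ov minus XX Te, with the standard error (SE) of the fit, and levels as the lowest, the median and the highest CPM of the 6 mice of a group. Reads do not tell whether a lower level comes from fewer cells of a type or from less RNA per cell. The number of called genes depended on the fit and on single mice: it was 236 when the 12 XX mice were fitted alone, 897 when all 48 mice were fitted together (559 of them higher with ovaries), and 524 without XX Te mouse 2 (311 higher with ovaries). It was 252 without XX Ov mice 1, 2 and 6, and 163 of the 344 were among these, so that 181 lost their call. Among the genes named below these were Aacs, Acot1, Acot3, Apom, Bcl6, Cd3d, Cfd, Cidec, Ctsc, Cyp17a1, Cyp2f2, Cyp4a32, Cyp7a1, Egfr, Fmo5, Gstp1, Hsd3b5, Nr0b2, Pdia6, Pfkfb3, Scp2, Sdf2l1, Serpina1e, Slc22a7, Slc22a27, Slc22a29, Slco1a4, Sult1a1, Sult1c2, Trac, Trim24 and 9030619P08Rik.

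**Figure D1:**
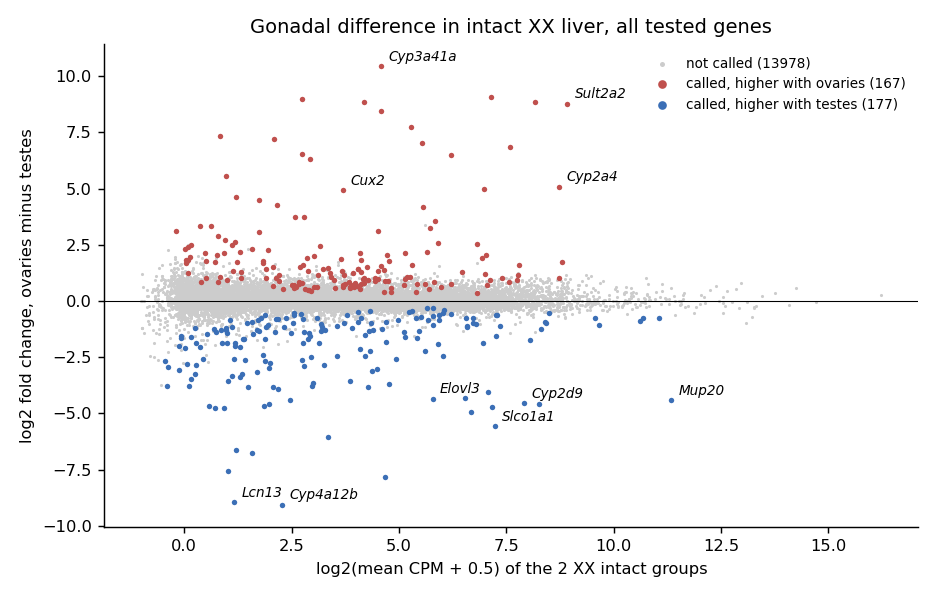
Log2 fold change (ovaries minus testes, y axis) against log2(mean CPM + 0.5) of both XX intact groups (x axis) for the 14322 tested genes, with the 167 genes called higher with ovaries in red and the 177 called higher with testes in blue. Cyp3a41a lies highest at 10.45 and Cyp4a12b lowest at -9.07, and Mup20 is the most abundant of the labelled genes.

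**Figure D2:**
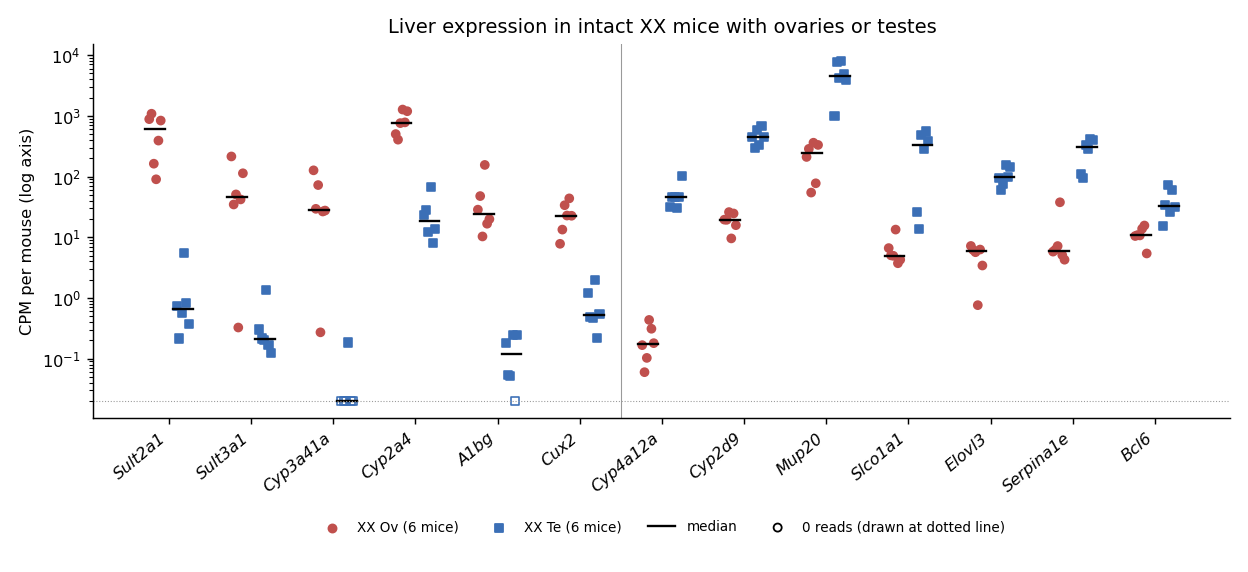
CPM of 13 genes in each of the 6 XX Ov mice (red circles) and 6 XX Te mice (blue squares) on a log axis, with the median as a bar and open symbols for mice without a read. The 6 genes on the left are higher with ovaries and the 7 on the right higher with testes, and a few single mice lie near the other group, such as 1 XX Ov mouse for Sult3a1 and Cyp3a41a.

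The sulfotransferases, which add sulfate to steroids, bile acids and phenols, were higher with ovaries in 8 of the 15 tested members of their list and higher with testes in none by edgeR (2 at an unadjusted p under 0.05), with a list median of 1.37 (log2) against 0.02 over all genes. By edgeR 53.3% of the list was called, against 2.4% of all genes tested. Sult2a2, a hydroxysteroid and bile acid sulfotransferase on chromosome 7, had 178, 936 and 2123 CPM with ovaries and 0.306, 0.815 and 10.1 CPM with testes. The lowest XX Ov mouse was far above the highest XX Te mouse, and the log2 fold change was 8.78 ± 1.33, adjusted p = 0.000206. Its neighbour Sult2a1 had 90.03, 613 and 1082 CPM with ovaries and 0.215, 0.647 and 5.42 CPM with testes (8.85 ± 1.35, adjusted p = 0.000233). In Sult2a3 the levels were 5.98, 279.7 and 631 CPM against 0.0515, 0.304 and 2.16 CPM, and the difference was 9.07 ± 1.48, adjusted p = 0.00053. Among XX Te mice, mouse 4 was the highest for all 3 genes, and the groups stayed apart with it included. Sult2a5 had lower levels (5.101, 30.8 and 93.6 CPM against 0, 0 and 0.424 CPM, 8.83 ± 1.28, adjusted p = 0.000123). Sult3a1 and Sult3a2, sulfotransferases of chromosome 10 that act on amines, followed with 7.72 ± 1.15 (adjusted p = 0.000173) and 7.22 ± 1.02 (adjusted p = 8.81e-05). For Sult3a1 the XX Ov mice ranged from 0.326 to 214 CPM and overlapped with XX Te mouse 4 at 1.36 CPM. Sult1c2 and Sult1a1 were the remaining called members. Sult1e1, the estrogen sulfotransferase, had 0.217, 0.439 and 2.403 CPM with ovaries and 0.0515, 0.229 and 0.484 CPM with testes and did not pass the test by edgeR (adjusted p = 0.122). It was called higher with ovaries by DESeq2's Wald test and with all 48 mice. Without XX Ov mice 1, 2 and 6, the number called was 6. DESeq2's Wald test called 9 higher with ovaries and 1 higher with testes, Papss1, which makes the sulfate donor and which was also called with length and GC offsets, with 1 surrogate variable and with all 48 mice. Near-identical members of this family and of the families below can exchange reads, so that single members are less certain than the family.

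Cytochromes P450 of the Cyp3a group, enzymes that oxidise steroids and drugs, held the largest single difference. Cyp3a41a (ENSMUSG00000075551, chromosome 5) had 0.272, 28.4 and 126 CPM with ovaries, whereas 5 of the 6 XX Te mice had no read and the sixth had 3 reads, 0.185 CPM (10.45 ± 1.19, adjusted p = 6.21e-06). Pooled over mice this was a ratio of reads of 1661 with an exact 95% counting interval of 568 to 8056, which covers counting error only, and fitted folds of genes this close to 0 depend on the prior count. XX Ov mouse 4 was close to the floor at 0.272 CPM, and the other 5 XX Ov mice lay between 26.6 and 126 CPM. Cyp3a41b, its near-copy, had 0, 8.304 and 32.2 CPM with ovaries and at most 0.123 CPM with testes (8.96 ± 1.17, adjusted p = 3.94e-05), with XX Ov mouse 4 at 0 and a ratio of reads of 652 with an exact 95% counting interval of 180.1 to 5389. The 250 bases before the start of both genes (RefSeq, GRCm38.p6) are shown for the closeness of the pair: 249 of 250 bases are identical and the capital marks the single base that differs.
Cyp3a41a (chr5:145720137-145720386, minus strand): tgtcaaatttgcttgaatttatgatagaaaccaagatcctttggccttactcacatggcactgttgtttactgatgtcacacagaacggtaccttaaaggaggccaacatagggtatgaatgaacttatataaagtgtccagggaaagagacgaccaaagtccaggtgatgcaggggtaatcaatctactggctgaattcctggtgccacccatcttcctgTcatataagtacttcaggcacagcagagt
Cyp3a41b (chr5:145584731-145584980, minus strand): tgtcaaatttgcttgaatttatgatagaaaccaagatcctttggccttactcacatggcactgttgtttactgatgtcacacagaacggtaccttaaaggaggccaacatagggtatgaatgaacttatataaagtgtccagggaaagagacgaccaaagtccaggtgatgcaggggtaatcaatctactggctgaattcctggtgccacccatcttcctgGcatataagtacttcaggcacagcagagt
Cyp3a16 (6.55 ± 0.88, adjusted p = 5.07e-05) and Cyp3a44 (6.33 ± 0.81, adjusted p = 2.76e-05) were also higher with ovaries, so that 4 of the 18 tested members of the Cyp3a and Cyp4a list were called in this direction (38.9% in either direction, against 2.4% of all genes tested). Their median levels with ovaries were 13.1 and 11.98 CPM, against 0.0919 and 0.0863 CPM with testes.

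Of 33 tested Cyp2 cytochromes, 9 were higher with ovaries and 3 with testes (36.4% in either direction, against 2.4% of all genes tested). Cyp2c69 had 198, 275 and 762 CPM with ovaries and 0.323, 1.19 and 16.1 CPM with testes (6.87 ± 0.86, adjusted p = 2.24e-05). Cyp2c40, of the same cluster on chromosome 19, had 97.6, 131 and 213 CPM and 0.484, 0.643 and 6.84 CPM (6.47 ± 0.67, adjusted p = 1.88e-06). In both genes the highest XX Te value was again that of mouse 4. Cyp2a4, a steroid hydroxylase, was the most abundant of the 9 at 405, 769 and 1268 CPM with ovaries, against 8.12, 18.4 and 66.3 CPM with testes (5.07 ± 0.59, adjusted p = 8.69e-06). Cyp2b13 had 82.4, 249.6 and 345 CPM and 1.899, 5.13 and 17.8 CPM (4.97 ± 0.55, adjusted p = 4.40e-06). Its relatives Cyp2b9 and Cyp2b10 were not called, with 0.84 ± 0.41 (adjusted p = 0.39) and -0.20 ± 0.51 (adjusted p = 0.864). For Cyp2b9, XX Te mouse 1 (477 CPM) lay above the median of the XX Ov mice (406 CPM).

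Flavin monooxygenases oxidise nitrogen and sulfur compounds. Fmo2 (1.603 ± 0.31, adjusted p = 0.00346) and Fmo4 (0.73 ± 0.15, adjusted p = 0.00456) were higher with ovaries. Fmo5 was higher with testes (419, 564 and 653 CPM with ovaries, 757, 987 and 1163 CPM with testes, -0.75 ± 0.16, adjusted p = 0.0103). No UDP-glucuronosyltransferase of 16 tested was called by edgeR, with 5 at an unadjusted p under 0.05 and 1 called by DESeq2's Wald test, and Gstp1 was the only glutathione S-transferase of 21 (higher with testes, -1.13 ± 0.24, adjusted p = 0.0081). Gstp1 makes 4.76% of its list, against 2.4% of all genes tested.

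A1bg, a plasma protein gene of chromosome 15, was one of the 12 genes with the largest increase with ovaries. It had 10.3, 24.2 and 155 CPM in XX Ov mice and at most 0.246 CPM in XX Te mice (8.44 ± 0.71, adjusted p = 8.64e-08). Hao2, a peroxisomal hydroxyacid oxidase, had 46.5, 99.4 and 173 CPM against 6.49, 8.72 and 16.2 CPM (3.58 ± 0.54, adjusted p = 0.000214). Hamp2, a relative of the iron hormone hepcidin, had 35.7, 81.2 and 161 CPM against 2.69, 11.5 and 17.6 CPM (3.22 ± 0.53, adjusted p = 0.000553), whereas Hamp, hepcidin itself, overlapped between the groups (249.96, 577 and 973 CPM and 101, 268 and 709 CPM) and was not called (0.96 ± 0.50, adjusted p = 0.415). Whether the change in Hamp2 differs from that in Hamp was not tested.

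Among genes higher with testes, Cyp4a12a and Cyp4a12b had the largest differences together with Lcn13. Both Cyp4a12 genes encode fatty acid omega-hydroxylases that make 20-HETE. Cyp4a12a had 30.01, 45.98 and 101 CPM in XX Te mice and 0.05995, 0.174 and 0.435 CPM in XX Ov mice (-7.82 ± 0.73, adjusted p = 4.95e-07). Cyp4a12b (ENSMUSG00000078597) had 2.48, 5.798 and 21.2 CPM with testes, and a single XX Ov mouse had 1 read, at 0.0515 CPM (-9.07 ± 0.97, adjusted p = 2.76e-06, a ratio of reads of 971 with an exact 95% counting interval of 174 to 38376). Cyp4a32 was also higher with testes (-1.002 ± 0.19), while Cyp4a10 and Cyp4a14, known PPARalpha targets of the same family, were not called (0.39 ± 0.28, adjusted p = 0.518, and 0.38 ± 0.25, adjusted p = 0.5). Lcn13, a secreted lipocalin, had 0 reads in all 6 XX Ov mice and 0.0538, 1.65 and 13.6 CPM in XX Te mice, a mean at least 20.9-fold above the mean floor of 3 reads per library (fit, adjusted p = 0.00184).

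The major urinary proteins (Mup), small lipocalins that carry pheromones and are made in the liver and excreted in urine, were higher with testes in 8 of 17 tested members and in none higher with ovaries by edgeR or DESeq2's Wald test (0 at an unadjusted p under 0.05), with a list median of -1.96 (log2). The called share was 47.1%, against 2.4% of all genes tested. The summed level of the family was 6469.7 to 28512 CPM in XX Te mice and 1999 to 12513 CPM in XX Ov mice, and 5 of the 6 XX Te mice lay above every XX Ov mouse. XX Ov mice 1, 2 and 6 had 6654 to 12513 CPM and the other 3 had 1999 to 3787 CPM. Mup20, also called darcin, was the most abundant called gene in XX Te mice, which had 998, 4514 and 7993 CPM, against 54.4, 248 and 360.5 CPM in XX Ov mice (-4.41 ± 0.63, adjusted p = 0.000102). Mup21 had 95.9, 288 and 409.8 CPM with testes and 9.85, 15.6 and 18.7 CPM with ovaries (-4.06 ± 0.47, adjusted p = 8.41e-06). Mup7, Mup11, Mup14 and Mup1 differed by -4.59, -4.93, -4.299 and -3.85 on the log2 scale. The abundant Mup3 did not pass the test (1896, 4818 and 11960.4 CPM with ovaries, 5031, 12006 and 20943 CPM with testes, adjusted p = 0.397). It was called higher with testes without XX Ov mice 1, 2 and 6, with length and GC offsets and with 1 surrogate variable. Mup genes share long stretches of sequence, and the share of each member is therefore uncertain.

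Cyp2d9 (ENSMUSG00000068086, chromosome 15), a testosterone 16-alpha hydroxylase, had 293, 448 and 680.4 CPM in XX Te mice and 9.57, 19.4 and 25.97 CPM in XX Ov mice. No mouse of one group came near the other, and the difference (-4.56 ± 0.33, adjusted p = 8.78e-09) had one of the smallest p-values. Other steroid enzymes higher with testes were Hsd3b5 (-6.04 ± 1.19, adjusted p = 0.00373), Cyp7b1, an oxysterol 7-alpha hydroxylase (-1.901 ± 0.38, adjusted p = 0.00457), and Srd5a1, a steroid 5-alpha reductase (-1.38 ± 0.24, adjusted p = 0.000903). Srd5a1 varied little among XX Te mice (47.5, 49.7 and 51.6 CPM) and lay at 8.47, 20.8 and 22.2 CPM with ovaries. Hsd3b5 varied widely among XX Te mice (0.215, 7.91 and 57.9 CPM), and the lowest overlapped with the XX Ov mice (0.109, 0.257 and 0.613 CPM). Cyp17a1, the enzyme that leads to androgens, was higher with ovaries (76.5, 185 and 268 CPM against 22.6, 45.7 and 89.8 CPM, 1.896 ± 0.37, adjusted p = 0.00374). In all, 2 of 27 tested members of the steroid list were higher with ovaries and 3 with testes (18.5% in either direction, against 2.4% of all genes tested).

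Transporters of organic anions and bile acids were called by edgeR in 4 of 35 tested in each direction, but in 1 higher with ovaries and 3 higher with testes without XX Ov mice 1, 2 and 6, and in 7 and 5 with all 48 mice. The main fit thus called 22.9% of the list, against 2.4% of all genes tested. Slco1a1, an uptake transporter, had 13.7, 335 and 552 CPM with testes and 3.73, 4.99 and 13.4 CPM with ovaries (-5.56 ± 0.89, adjusted p = 0.000443). XX Te mice 1 and 2 had 26.0 and 13.7 CPM and the other 4 had 284 to 552 CPM, and the lowest lay just above XX Ov mouse 4 at 13.4 CPM. Slco1a4, on the same chromosome, was higher with ovaries (1.297 ± 0.26, adjusted p = 0.00422). Within the Slc22 cluster of chromosome 19 the direction differed between neighbours. Slc22a26 had 70.3, 85.2 and 109.8 CPM with ovaries and 2.56, 3.81 and 11.8 CPM with testes (4.196 ± 0.45, adjusted p = 2.87e-06), and Slc22a27 followed with 2.55 ± 0.45. Slc22a28 had 0.258, 0.405 and 0.8699 CPM with ovaries and 3.55, 10.6 and 14.6 CPM with testes (-4.397 ± 0.58, adjusted p = 4.30e-05). Abcg2, an efflux pump, was higher with testes (-1.11 ± 0.20, adjusted p = 0.00174). The remaining called members were less stable: Slc22a29 (1.43 ± 0.39, adjusted p = 0.0492) lost its call in 19 of 30 alternatives and Slc22a7, an organic anion transporter (-1.44 ± 0.36, adjusted p = 0.0318), in 12 of 30.

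Regulators of sex-dependent liver genes were examined next. Cux2, the repressor known from female liver, had 7.801, 22.7 and 43.7 CPM with ovaries and 0.223, 0.518 and 1.97 CPM with testes (4.91 ± 0.67, adjusted p = 5.50e-05). Bcl6 was higher with testes (15.1, 32.6 and 73.8 CPM, against 5.41, 10.8 and 15.6 CPM with ovaries, -1.84 ± 0.34, adjusted p = 0.00179), with the lowest XX Te mouse just under the highest XX Ov mouse. Trim24, a nuclear receptor cofactor, was higher with ovaries (0.86 ± 0.19, adjusted p = 0.013), and these 3 were the called ones among 21 regulators tested (14.3%, against 2.4% of all genes tested). Hnf4a (-0.27 ± 0.22) and Tox (0.63 ± 0.21) were not called (adjusted p = 0.572 and 0.157). Tox was called higher with ovaries with 1 surrogate variable and with all 48 mice. None of the 17 tested members of the growth hormone, STAT5 and IGF1 axis was called by edgeR or by DESeq2's Wald test, and 1 had an unadjusted p under 0.05. Ghr, the growth hormone receptor, had 476, 687 and 736 CPM with ovaries and 713, 752 and 912 CPM with testes (-0.18 ± 0.15, adjusted p = 0.561). Stat5b differed by -0.12 ± 0.13 (adjusted p = 0.657) and Igf1 by 0.11 ± 0.14 (adjusted p = 0.723). Socs2 and Cish, genes induced by STAT5, had 0.70 ± 0.36 (adjusted p = 0.404) and 1.41 ± 0.52 (adjusted p = 0.214).

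Of 7 tested receptors for sex steroids, prolactin, leptin and epidermal growth factor, 3 were called (42.9%, against 2.4% of all genes tested). Prlr, the prolactin receptor, had 203, 274 and 406 CPM with ovaries and 70.3, 143 and 180.04 CPM with testes (1.15 ± 0.24, adjusted p = 0.00698). Esr1, the estrogen receptor alpha, was also higher with ovaries (18.3, 31.2 and 37.5 CPM against 11.9, 15.3 and 19.4 CPM, 0.98 ± 0.19, adjusted p = 0.00363). Egfr was higher with testes (28.1, 46.7 and 88.999 CPM with ovaries, 96.1, 207 and 291 CPM with testes, -1.89 ± 0.43, adjusted p = 0.0135). Lepr, the leptin receptor, did not pass the test (1.604 ± 0.49, adjusted p = 0.0968).

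STAT5 and BCL6 bind overlapping DNA motifs, and the 250 bases before the RefSeq gene starts (GRCm38.p6) were searched for TTCNNNGAA, which reads the same on both strands. RefSeq windows were matched by symbol to 9235 of the 14322 tested genes. The motif occurred before 14.1% of the 99 matched genes higher with ovaries, 10.3% of the 116 matched genes higher with testes and 7.6% of all matched genes. ATCGAT, a motif of CUX and HNF6 factors, occurred before 3.03%, 1.72% and 0.79% of the same sets, which is 3, 2 and 73 genes. Searched as well were TATAAA, the TATA box (15.2%, 7.76% and 8.44%), and CCAAT, the motif of NFY (41.4%, 34.5% and 40.6%). A higher share before genes higher with ovaries was thus not limited to the STAT5 and CUX motifs, and no share was tested. These shares describe letters in a short window and do not show binding. Among the 96 called genes selected for description, 68 had a window and 12 held TTCNNNGAA. The windows of 4 of them that were higher with ovaries and of Bcl6, which was higher with testes and has 3 matches before its second listed start, are shown with the matches in capitals.
A1bg (chr15:60921271-60921520, minus strand): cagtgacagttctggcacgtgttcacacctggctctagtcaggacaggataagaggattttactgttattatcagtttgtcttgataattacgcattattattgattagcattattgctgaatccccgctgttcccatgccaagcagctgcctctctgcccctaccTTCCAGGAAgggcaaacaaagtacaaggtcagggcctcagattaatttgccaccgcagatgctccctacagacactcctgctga
Sult3a1 (chr10:33857472-33857721, plus strand): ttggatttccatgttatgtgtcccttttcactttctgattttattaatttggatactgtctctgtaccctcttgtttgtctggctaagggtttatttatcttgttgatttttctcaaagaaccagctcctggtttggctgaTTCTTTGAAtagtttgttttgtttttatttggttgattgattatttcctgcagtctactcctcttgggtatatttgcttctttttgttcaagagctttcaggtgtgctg
Hamp2 (chr7:30924182-30924431, minus strand): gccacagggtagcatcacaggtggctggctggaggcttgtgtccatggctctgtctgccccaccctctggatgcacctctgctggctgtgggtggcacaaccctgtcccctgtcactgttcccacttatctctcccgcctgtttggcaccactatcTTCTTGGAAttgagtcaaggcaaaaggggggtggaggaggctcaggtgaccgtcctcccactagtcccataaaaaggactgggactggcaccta
Prlr (chr15:10223656-10223905, plus strand, the second of 3 starts): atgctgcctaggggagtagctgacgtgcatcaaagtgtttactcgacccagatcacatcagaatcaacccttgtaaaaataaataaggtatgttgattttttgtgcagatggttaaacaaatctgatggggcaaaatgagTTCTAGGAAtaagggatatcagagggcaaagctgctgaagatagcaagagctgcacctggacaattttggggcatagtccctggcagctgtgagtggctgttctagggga
Bcl6 (chr16:23981284-23981533, minus strand, the second of 2 starts): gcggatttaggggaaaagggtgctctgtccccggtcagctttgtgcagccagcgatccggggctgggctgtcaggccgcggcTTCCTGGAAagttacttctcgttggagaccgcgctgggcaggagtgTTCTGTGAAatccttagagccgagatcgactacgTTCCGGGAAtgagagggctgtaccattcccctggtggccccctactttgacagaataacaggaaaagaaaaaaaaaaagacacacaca
The matches begin 84 bases (A1bg), 109 bases (Sult3a1), 94 bases (Hamp2) and 110 bases (Prlr) before the start, and those of Bcl6 begin 168, 122 and 88 bases before it.

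Lipid genes are of interest on a HFD. By edgeR 9.52% of the tested genes of triglyceride storage, 8.33% of those of elongation and desaturation, 5.56% of those of de novo lipogenesis, 5.0% of those of fatty acid oxidation and 0% of those of cholesterol synthesis were called between XX mice with ovaries and testes, against 2.4% of all genes tested, with between 0 and 4 genes in each list. In the list of de novo lipogenesis, 1 of 18 tested genes was called: Aacs, a ketone-using enzyme, was higher with testes (-1.35 ± 0.35, adjusted p = 0.0349) and lost its call without any one of XX Te mice 1, 4 or 6 or XX Ov mice 1, 2, 4 or 6. A positive log2 fold change was seen in 2 of the 18, and the list median was -0.27. At an unadjusted p under 0.05 by edgeR, 1 was higher with ovaries and 2 with testes. The summed level was 5032 to 14131 CPM with ovaries and 9048 to 17531 CPM with testes. Fasn (90.4, 107 and 303 CPM with ovaries, 99.03, 265 and 334 CPM with testes) and Scd1 (3229, 7126 and 11816 CPM and 6866, 12316 and 14586 CPM) overlapped between the groups, with -0.57 ± 0.43 (adjusted p = 0.54) and -0.70 ± 0.41 (adjusted p = 0.458). Srebf1 and Mlxipl, which control these genes, differed by -0.23 ± 0.27 and -0.19 ± 0.16 (adjusted p = 0.685 and 0.575). None of 29 tested genes of cholesterol synthesis and uptake was called by edgeR or DESeq2's Wald test (0 at an unadjusted p under 0.05). Elovl3, an elongase of very long fatty acids, was the 1 called gene among 12 tested for elongation and desaturation: it had 60.1, 96.5 and 152 CPM with testes and 0.761, 5.92 and 7.19 CPM with ovaries (-4.35 ± 0.44, adjusted p = 1.30e-06).

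Of 42 tested genes of triglyceride storage and hydrolysis, 4 were higher with testes and none with ovaries by edgeR (13 and 5 at an unadjusted p under 0.05). In all 4 the groups did not overlap, as in 203 of the 344 called genes and in 1.86% of all genes tested. DESeq2's Wald test called 6 higher with testes and 1 higher with ovaries, the lipoprotein receptor Vldlr, and 7 and 2 were called with 1 surrogate variable and with all 48 mice. Cidea and Cidec coat lipid droplets and promote their fusion. Cidea had 0.669, 3.19 and 7.02 CPM with testes and at most 0.0544 CPM with ovaries, 3 reads in all (-6.63 ± 1.105, adjusted p = 0.00133, a ratio of reads of 128 with an exact 95% counting interval of 43.4 to 623). Cidec had 16.1, 43.96 and 103 CPM with testes and 3.55, 8.05 and 12.7 CPM with ovaries (-2.59 ± 0.51, adjusted p = 0.00374). The others were Fitm1, a membrane protein of droplet formation (-1.21 ± 0.22, adjusted p = 0.00154), and Ces3a, a carboxylesterase (-1.07 ± 0.19, adjusted p = 0.00101). Among 40 tested genes of PPARalpha and fatty acid oxidation, the thioesterases Acot3 (82.1, 221 and 289 CPM with ovaries, 43.7, 45.9 and 82.1 CPM with testes, 2.02 ± 0.50, adjusted p = 0.0245) and Acot1 (0.77 ± 0.20, adjusted p = 0.0371) were higher with ovaries. Acot3 lost its call without any one of XX Te mice 1, 4, 5 or 6 or XX Ov mouse 6, and Acot1 without any one of XX Te mice 1, 2, 3, 5 or 6 or XX Ov mice 1, 2, 4 or 6. Ppara itself was not called (-0.26 ± 0.22, adjusted p = 0.576), nor was the fatty acid transporter Cd36 (0.57 ± 0.28, adjusted p = 0.377).

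Pnpla3, a lipid droplet protein linked to fatty liver in humans, is a gene the study follows. Its levels were low, at 0.217, 0.946 and 2.64 CPM with ovaries and 0, 0.448 and 0.807 CPM with testes, and 3 of the 6 XX Ov mice lay within the XX Te range. The mean was 1.26 ± 0.965 CPM (SD, n = 6) with ovaries and 0.427 ± 0.268 CPM (SD, n = 6) with testes, and the difference of 0.834 CPM did not pass a two-sided exact permutation test (p = 0.0606, 924 splits). The fit across all genes gave 1.61 ± 0.62 (adjusted p = 0.243). Leaving out XX Ov mouse 4 gave an exact permutation p of 0.0173 and leaving out XX Te mouse 2 gave 0.0476, whereas leaving out XX Te mouse 5, which had no read, gave 0.121. The window before its start holds 1 match of CCAAT, the motif of NFY, on the minus strand (ATTGG as printed, in capitals), as 40.6% of all matched tested genes hold at least 1 on either strand.
Pnpla3 (chr15:84167566-84167815, plus strand): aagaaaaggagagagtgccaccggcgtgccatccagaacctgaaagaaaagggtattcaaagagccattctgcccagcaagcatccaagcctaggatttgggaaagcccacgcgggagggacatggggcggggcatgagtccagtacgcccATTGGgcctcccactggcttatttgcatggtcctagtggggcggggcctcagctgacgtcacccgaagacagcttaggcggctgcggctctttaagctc

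In bile acid metabolism 1 of 17 tested genes was higher with ovaries and 3 with testes (23.5% in either direction, against 2.4% of all genes tested). Cyp7a1, the rate-limiting enzyme of bile acid synthesis, had 265, 699.7 and 944 CPM with ovaries and 114, 147 and 436 CPM with testes (1.71 ± 0.45, adjusted p = 0.0403), a call that was lost without any one of XX Te mice 1, 2, 4 or 6 or XX Ov mice 1, 2 or 6. Cyp7b1, described above, belongs to the second pathway of bile acid synthesis and was higher with testes. Nr0b2, the repressor SHP that acts on Cyp7a1, was higher with testes (2.22, 3.78 and 4.53 CPM with ovaries, 5.62, 8.11 and 13.7 CPM with testes, -1.36 ± 0.31, adjusted p = 0.015), as was Scp2, a sterol carrier (-0.74 ± 0.17, adjusted p = 0.0153). Cyp8b1 did not pass the test by edgeR (-0.93 ± 0.28, adjusted p = 0.0836) but was called higher with testes by DESeq2's Wald test and with length and GC offsets. Of 19 apolipoprotein and lipoprotein genes, Apom, the carrier of sphingosine-1-phosphate in HDL, was called (156, 181 and 198 CPM with ovaries, 78.97, 101 and 119 CPM with testes, 0.92 ± 0.18, adjusted p = 0.00456). Apom makes 5.26% of this list, against 2.4% of all genes tested. Apoa4 was variable in both groups (48.1, 77.2 and 243 CPM and 69.7, 244 and 568 CPM) and was not called.

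Secreted proteins of complement and protease inhibition were higher with testes in 5 of 34 tested genes, and none was higher with ovaries by edgeR (11 and 4 at an unadjusted p under 0.05). The called share was 14.7%, against 2.4% of all genes tested. DESeq2's Wald test called 7 higher with testes and 2 higher with ovaries, the lectin Mbl2 and the antithrombin gene Serpinc1, and 9 and 4 were called with all 48 mice. For Serpinc1 every XX Ov mouse was above every XX Te mouse. Serpina1e, an alpha-1-antitrypsin, had 94.3, 309.8 and 422 CPM with testes and 4.27, 6.01 and 37.7 CPM with ovaries (-4.702 ± 0.81, adjusted p = 0.000905). XX Ov mouse 4 was the highest of its group at 37.7 CPM, with the other 5 at 7.16 CPM or less, and the groups did not overlap. Components of the complement cascade followed, namely C4a (-3.01 ± 0.43, adjusted p = 9.68e-05), C6 (-2.44 ± 0.23, adjusted p = 6.80e-07), C8a (-1.74 ± 0.26, adjusted p = 0.000161) and C9 (-0.99 ± 0.22, adjusted p = 0.0135). C9 was not called without XX Te mouse 5. Cfd, the complement protease factor D, which is best known from fat cells, had 2.88, 5.797 and 10.1 CPM with testes and 0.111, 0.168 and 0.435 CPM with ovaries (-4.66 ± 0.95, adjusted p = 0.0053). The defining fat cell genes Adipoq, Plin1 and Lep were at or near 0 in all 12 mice (at most 0.0606 CPM). Alas2, the heme synthesis enzyme of red cell precursors, is X-linked and was higher with testes, with 71.1, 77.97 and 92.96 CPM against 10.7, 17.5 and 20.9 CPM (-2.23 ± 0.16, adjusted p = 7.92e-09). The red cell gene Hba-a1 overlapped between the groups (8.55 to 36.8 CPM with testes, 9.85 to 22.3 CPM with ovaries).

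Of 27 interferon-stimulated genes tested, 7 were higher with ovaries and none with testes by edgeR (19 and 0 at an unadjusted p under 0.05, and 8 and 0 called by DESeq2's Wald test), and all 27 had a positive log2 fold change, with a median of 0.90 against 0.02 over all genes. The share called by edgeR was 25.9%, against 2.4% of all genes tested. In all 27 the groups overlapped. The summed level was 432 to 1339.7 CPM with ovaries and 342 to 742 CPM with testes, with XX Ov mice 4 and 5 at 1199 and 1339.7 CPM and the other 4 XX Ov mice at 432 to 496 CPM. Ifit1 had 10.5, 15.03 and 116 CPM with ovaries and 7.26, 10.96 and 18.1 CPM with testes (1.54 ± 0.40, adjusted p = 0.0403), and XX Ov mouse 5 alone was at 116 CPM. Ifit3b (1.598 ± 0.38, adjusted p = 0.0196), Gbp3 (1.5002 ± 0.32, adjusted p = 0.00761) and Ifi44 (1.49 ± 0.37, adjusted p = 0.0252) were also called. Ifit1 lost its call without any one of XX Te mice 1, 3, 4, 5 or 6 or XX Ov mice 4 or 5, Ifit3b without any one of XX Te mice 1 or 3 or XX Ov mice 4 or 5 and Ifi44 without any one of XX Te mice 1, 3, 4 or 5 or XX Ov mice 4 or 5. The count of 7 was 3 under library totals, 3 without XX Te mouse 5, 10 without XX Te mouse 2 and 16 without XX Ov mice 1, 2 and 6. XX Ov mouse 4 also had the highest Kupffer cell and MHC class II sums of its group (1243 and 305 CPM, against 484 to 902 and 80.7 to 148 CPM in the other 5), and XX Te mouse 2 those of its own (1651 and 410.4 CPM). The part of these cells in the result was not tested.

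Few markers of other liver cells were called. None of the tested genes of Kupffer cells (20), MHC class II (9), neutrophils (11), sinusoidal endothelium (14) or stellate cells and matrix (21) was called by edgeR, with 1, 0, 1, 1 and 5 genes at an unadjusted p under 0.05. DESeq2's Wald test called 1 stellate cell gene and none of the others. Without XX Te mouse 2, which was the highest in the first 2 lists, 2 Kupffer cell genes and 6 MHC class II genes were called, all higher with ovaries. The T cell genes Cd3d (2.49 ± 0.67, adjusted p = 0.047) and Trac (2.31 ± 0.54, adjusted p = 0.0171) were called at medians of 1.25 and 0.686 CPM with ovaries and 0.139 and 0.145 CPM with testes, near the floor. They were the called ones among 18 tested genes of T, B and NK cells (11.1%, against 2.4% of all genes tested), of which 14 had a positive log2 fold change. Themis, a T cell gene outside this list that was named after its values were seen, was called higher with testes (-2.83, adjusted p = 0.0234 by edgeR). Cd3d lost its call without any one of XX Te mice 1, 3, 4, 5 or 6 or XX Ov mice 1, 2, 4 or 6, and Trac without XX Ov mice 2 or 4. Prom1, the 1 called gene of 7 on the cholangiocyte list, was higher with ovaries (2.18 ± 0.49, adjusted p = 0.0139) in a group led by XX Ov mouse 4 at 9.89 CPM, without which it was not called. The list as a whole did not follow it: 3 of the 7 genes had a positive log2 fold change, and the median was -0.15. The 3 tested cholangiocyte markers, Epcam, Spp1 and Sox9, had negative log2 fold changes (-0.92 to -0.15), and none was called. None of 16 clock genes, 30 genes of amino acid metabolism, 15 S100 proteins and annexins or 8 X-linked genes that escape inactivation was called by edgeR, with 0, 1, 4 and 1 at an unadjusted p under 0.05 and 1 amino acid gene called by DESeq2's Wald test. Of 19 zonation genes, 1 was called in each direction (Ctsc, 0.69 ± 0.17, adjusted p = 0.0312, and Cyp2f2, -0.92 ± 0.22, adjusted p = 0.0239). Of 22 genes of the unfolded protein response, Sdf2l1 (-0.92 ± 0.23, adjusted p = 0.0289) and Pdia6 (-0.64 ± 0.17, adjusted p = 0.0459) were higher with testes. The list median was -0.35 (log2), with 7 higher with testes and 0 with ovaries at an unadjusted p under 0.05. DESeq2's Wald test called 5 and the fit with all 48 mice 6, all higher with testes. None was called without XX Te mouse 4, without XX Te mouse 5 or without XX Ov mice 1, 2 and 6. Ccnd1 was called among 24 cell cycle genes (1.05 ± 0.28, adjusted p = 0.048), and Pfkfb3 among 18 genes of glucose metabolism (-1.15 ± 0.31, adjusted p = 0.0442). Of these 6, Cyp2f2 lost its call without any one of XX Te mouse 1 or XX Ov mice 1 or 6, and each of the other 5 lost it without any one of at least 7 mice. The shares called by edgeR were 14.3% for cholangiocyte genes, 10.5% for zonation and 9.09% for the unfolded protein response. They were 4.17% for the cell cycle and 5.56% for glucose metabolism, against 2.4% of all genes tested.

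**Figure D3:**
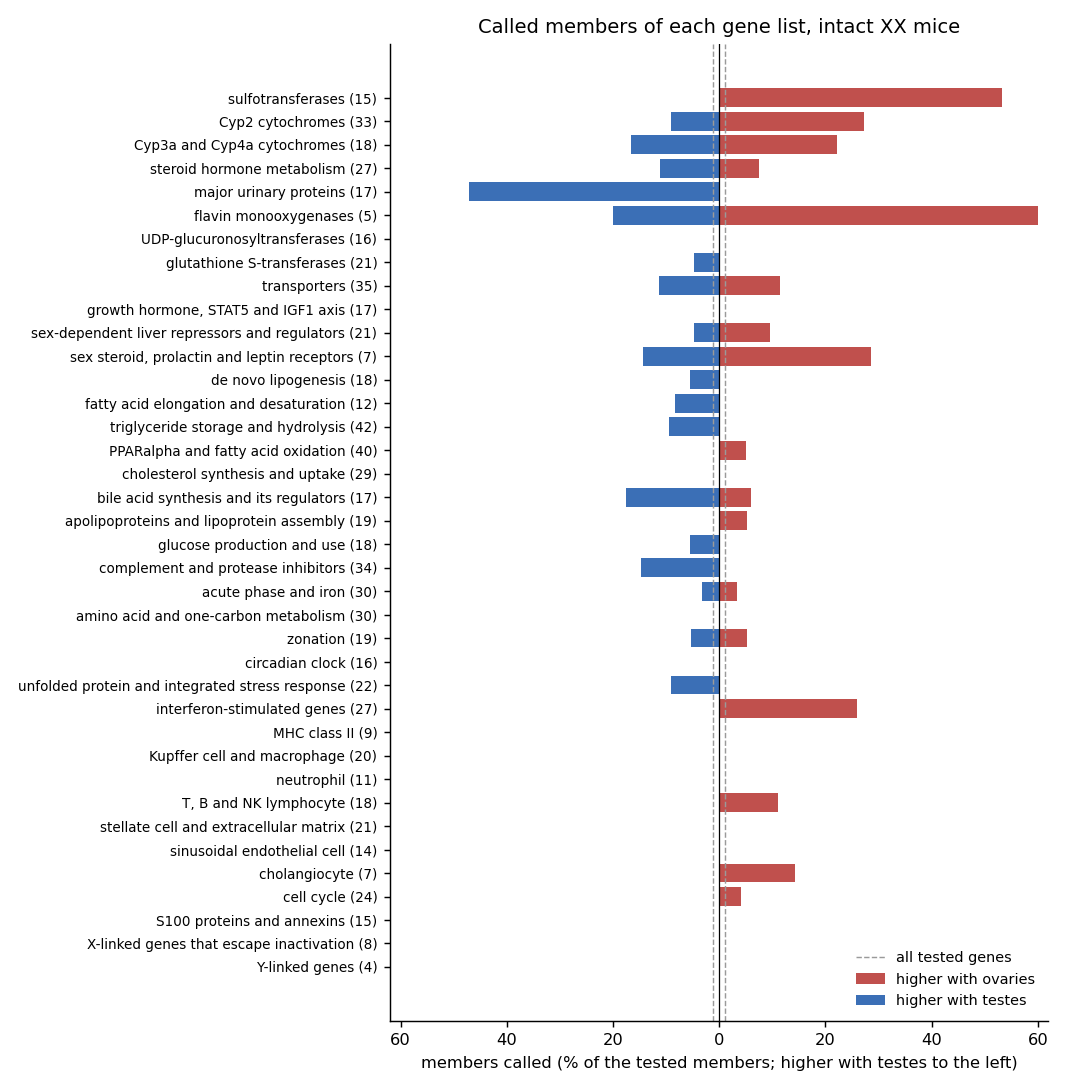
Share of the tested members of each gene list (number tested in brackets) that was called higher with ovaries (red, to the right) or higher with testes (blue, to the left), in percent, with the shares of all tested genes (1.17% and 1.24%) as dashed lines. Sulfotransferases and interferon-stimulated genes extend to the right alone, major urinary proteins and complement genes to the left alone.

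The same contrast in XY mice, which are different animals, asks whether the gonadal difference depends on the sex chromosomes. In intact XY mice 1070 genes were called (7.47%), 701 of them higher with ovaries (4.89%) and 369 with testes (2.58%). Of the 344 genes called in XX mice, 336 (97.7%) had the same sign in XY mice, compared with 76.9% of all genes tested, and 256 were called in both, which is 74.4% of the XX and 23.9% of the XY calls. The median size of the 344 differences was 1.44 on the log2 scale in XX mice, which chose them, and 1.301 in XY mice. The log2 difference was -4.56 in XX and -4.14 in XY mice for Cyp2d9, -4.35 and -4.82 for Elovl3, and 4.91 and 5.69 for Cux2. Cyp3a41a had 3.71 ± 1.43 in XY mice and was not called there (adjusted p = 0.127), against 10.45 in XX mice. Tested directly, the interaction of gonad and chromosomes called no gene of 14322 by edgeR or by DESeq2's Wald test, with 457 (3.19%) at an unadjusted p under 0.05. A call in XX mice without one in XY mice is therefore not shown to be a difference between the backgrounds.

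The XX GDX mice show what remained of the difference after the gonads were removed at 75 days of age. Between mice that had formerly had ovaries and testes, 9 of 14857 genes were called (0.0606%), 4 of them higher after ovaries (0.0269%) and 5 after testes (0.0337%), with 1027 (6.91%) at an unadjusted p under 0.05. Of the 344 genes of the intact contrast 313 could be tested here, and the median size of their differences was 0.21 on the log2 scale, compared with 1.33 in the intact mice, which chose them. The sign was the same as in intact mice in 218 of the 313 (69.6%), compared with 47.5% of all genes tested in both contrasts. The interaction of gonad and GDX in XX mice, which tests the difference between the contrasts, called 144 of 15414 genes (0.934%, in 0.48% more positive and in 0.454% more negative in intact mice), 130 of them among the 344. The intact contrast that chose the 344 is part of this interaction, so that overlap is partly built in. By the labels GDX mice received 15 instead of 11 weeks of HFD, and their libraries stood apart: reads outside genes made up 8.52% to 10.1% in the 12 XX GDX libraries and 3.47% to 6.2% in the 12 intact XX libraries, and multimapping reads 9.19% to 10.8% and 10.7% to 14.4%. Neither the diet nor the libraries can be told apart from the effect of GDX. GDX libraries also varied less between mice (biological coefficient of variation of 0.15, against 0.29 in the intact fit).

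Cyp2b13, Cyp2c40, an unnamed gene, Slc22a26 and 1700055N04Rik had the smallest interaction p-values among genes whose difference was more positive in intact mice. Cyp2b13 had means of 242 and 8.11 CPM in intact XX Ov and XX Te mice and of 464 and 387 CPM in the corresponding GDX groups (interaction 4.78 ± 0.56, adjusted p = 8.73e-07). Cyp2c40 had 45.8 and 30.9 CPM after GDX, between its intact levels of 146 and 1.76 CPM (interaction 5.98 ± 0.74, adjusted p = 2.36e-06). Cux2 had 23.98 and 0.817 CPM in the intact groups and 28.2 and 27.3 CPM in the GDX groups (interaction 4.95 ± 0.74, adjusted p = 4.93e-05). In the other direction, the 5 smallest p-values belonged to Elovl3, Fbf1, Cyp2d9, Cyp4a12a and Alas2. Elovl3 had 6.93 and 9.93 CPM in the GDX groups, against 4.92 CPM in intact XX Ov and 104 CPM in intact XX Te mice (interaction -3.79 ± 0.51, adjusted p = 8.79e-06). Mup20 had 187 and 235 CPM in the GDX groups, against 219.8 and 4944 CPM in the intact ones (interaction -4.01 ± 0.82, adjusted p = 0.00518). Alas2 (-1.58 ± 0.25, adjusted p = 9.54e-05), Cyp4a12a (-7.38 ± 1.12, adjusted p = 5.59e-05) and Fbf1, a centriole protein (-2.71 ± 0.40, adjusted p = 4.93e-05), had interactions of the same sign as Elovl3. Intact and GDX groups share no mouse. Means of the GDX mice carry the diet and library differences as well as GDX.

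**Figure D4:**
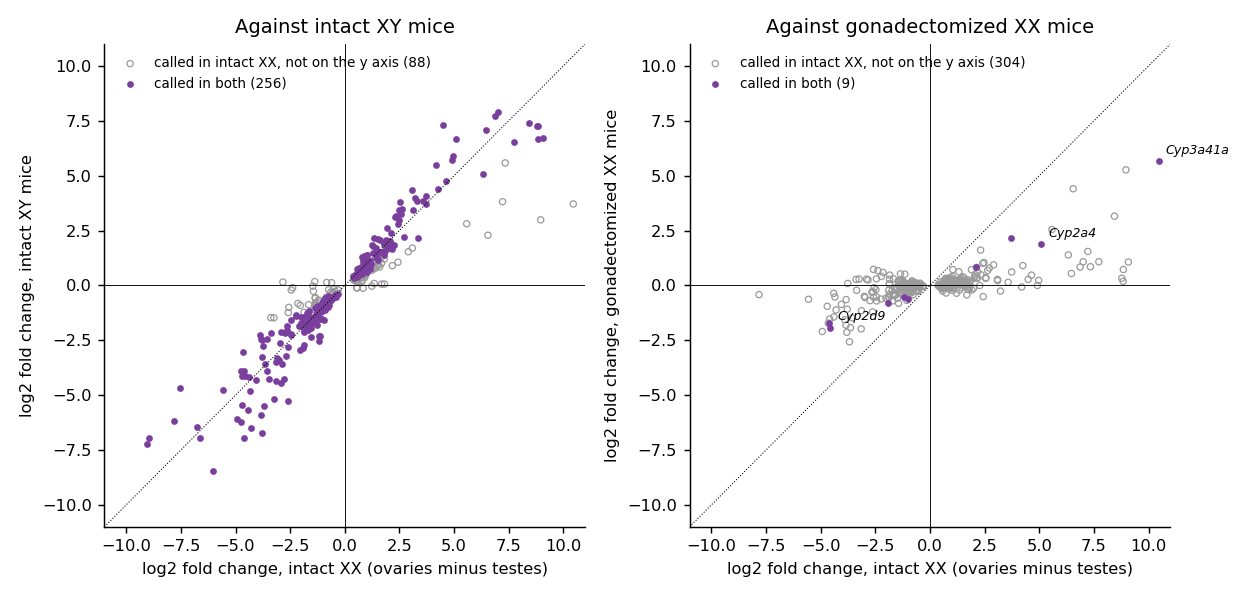
Log2 fold change (ovaries minus testes) of the genes called in intact XX mice (x axis) against intact XY mice (left, 344 genes) and against XX GDX mice (right, the 313 genes tested there), with genes also called on the y axis in purple and the dotted line marking equal differences. The points follow the line on the left and lie near the horizontal axis on the right, where 9 genes were called.

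The XX GDX groups still differed in 9 genes, all of them called with the same sign in intact XX mice. These groups differ in former gonad type and in the Sry transgene, which cannot be told apart here. Cyp2d9 had 104, 150.02 and 287 CPM in mice that had had testes and 27.03, 42.3 and 61.99 CPM in mice that had had ovaries. The groups did not overlap, and the difference was -1.92 ± 0.25, adjusted p = 0.000895, smaller than in intact mice (interaction -2.598 ± 0.39, adjusted p = 4.93e-05). Rassf3, a Ras-association protein, differed by -0.55 ± 0.077, adjusted p = 0.000895 after GDX and by -1.18 ± 0.11 in intact mice. Tmem19, a membrane protein, differed by -0.61 ± 0.085, adjusted p = 0.000895 after GDX and by -0.99 ± 0.12 in intact mice, and its interaction was not called (adjusted p = 0.342). Cyp7b1 (-0.81 ± 0.15, adjusted p = 0.0274) and 2610305D13Rik (-1.73 ± 0.34, adjusted p = 0.0462) were the other genes higher after former testes. Higher after former ovaries were Cyp2a4 (217, 289 and 485 CPM, against 19.7, 81.8 and 134 CPM, 1.88 ± 0.31, adjusted p = 0.0149), Cyp3a41a (5.68 ± 1.01, adjusted p = 0.0274), Fam19a2 (2.15 ± 0.40, adjusted p = 0.0314) and 9030619P08Rik (0.82 ± 0.14, adjusted p = 0.0145). In XY GDX mice, where 7 genes were called (0.0471%, with 0.0269% higher after ovaries and 0.0202% higher after testes), 4 of the 9 were called with the same sign, namely Cyp2d9 (-1.94 ± 0.26, adjusted p = 0.00221), Rassf3, Tmem19 and Fam19a2. The 9 calls in XX GDX mice came down to 3 without 1 former XX Ov mouse (mouse 6) and rose to 21 without 1 former XX Te mouse (mouse 3). With at least 10 reads required in every mouse, 6 of the 9 remained called, and genes with fewer reads in any mouse were not tested.

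**Figure D5:**
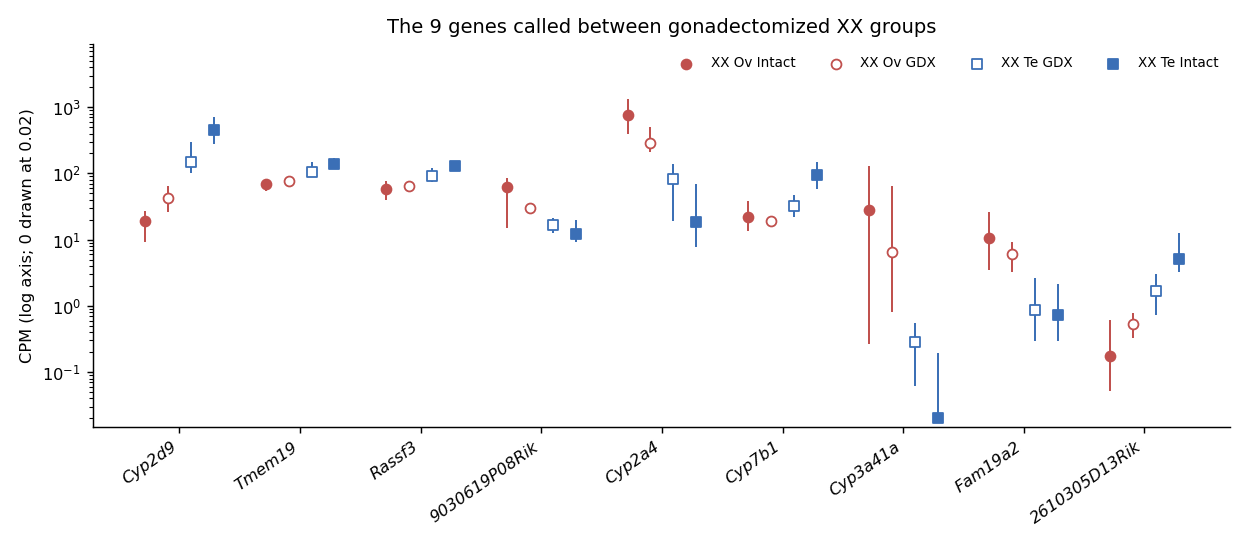
CPM (log axis) of the 9 genes called between XX GDX groups, with the median of 6 mice as a symbol and the lowest to the highest mouse as a line, for intact mice (filled) and GDX mice (open) with ovaries (red circles) or testes (blue squares). In 8 of the 9 genes both GDX medians lie between the intact medians, the exception being the former ovary group of Cyp7b1, with Cyp2d9 at 42.3 and 150.0 CPM between 19.4 and 448 CPM.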

How the data were processed

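Liver RNA was sequenced from 48 FCG mice on HFD, 6 in each of 8 groups defined by sex chromosomes, gonad type and GDX as given in the labels. The authors aligned reads with STAR 2.7.10a and deposited raw counts per gene (Ensembl identifiers, GRCm39) after polyA selection; the annotation release and the strand setting are not given in the sources used here. All columns were matched to a mouse, and 4 rows of reads outside single genes were left out (per library, 8.59% to 18.9% multimapping, 6.99% to 16.5% unmapped, 3.47% to 6.2% outside genes in intact and 8.52% to 11.3% in GDX mice and 2.53% to 3.55% ambiguous). CPM values were computed from these counts as a share of the reads on genes. Total counts on genes limit the precision, and floors cover counting error only.

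Differences were tested with edgeR 4.0.16 (TMM scaling, filterByExpr, robust quasi-likelihood F-test, Benjamini-Hochberg adjustment over all tested genes, called at an adjusted p under 0.05) in R 4.3.3, and every adjusted p comes from that fit unless DESeq2 1.42.0 is named. The 24 intact mice were fitted with 4 group means, the 24 GDX mice likewise, and all 48 mice for the interaction with GDX. Pnpla3 was also tested with a two-sided exact permutation test of mean CPM. The procedure was also run on simulated counts, which were drawn independently for each gene and without outlying mice. That run therefore does not cover the dependence of the calls on single mice. The members and the gene lists were chosen with earlier results of these data known. Named are the 12 highest and 12 lowest called log2 fold changes with a symbol and a mean log2 CPM of at least 0, up to 4 called genes per list and direction with the key genes of each list, Pnpla3, Xist, Sry and Y-linked genes, and up to 5 genes per direction called in the interactions or in both intact and GDX mice. Markers and library statistics were named as checks. Papss1, Vldlr, Mbl2 and Serpinc1 were named after their values were seen. Symbols were paired with 56.0% of the 55414 identifiers. Some genes of the lists are not reported here.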

Additional observations from a re-analysis of the deposited data

Results flagged for a closer look

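For 117 genes named above, the 6 mice of each XX intact group were searched for a mouse far from its group (gap to the nearest mouse over the range of the group above Dixon's critical value). This occurred in 36 of 227 groups of values, with 7 further groups left out for having under 3 reads in every mouse. Chance gives about 1 in 20 groups for independent, normally distributed values, which these are not: CPM values are skewed, many are near 0 and genes vary together, so that the count cannot be read against that share. XX Te mouse 4 accounted for 12 of them and XX Ov mouse 4 for 9. XX Te mouse 4 was the highest of its group in Cyp2a4 (66.3 CPM), Cyp2c40 (6.84 CPM), Cyp2c69 (16.1 CPM), Cyp3a41a (0.185 CPM), Cyp3a44 (0.739 CPM), Ddx3y (3.82 CPM), Eif2s3y (3.88 CPM), Slc22a26 (11.8 CPM), Sult2a1 (5.42 CPM), Sult2a2 (10.1 CPM), Sult2a3 (2.16 CPM) and Sult3a1 (1.36 CPM). XX Ov mouse 4 was the highest of its group in A1bg (155 CPM), Ctsc (229 CPM), Cyp2b10 (21.5 CPM), Gstp1 (203 CPM), Prom1 (9.89 CPM), Serpina1e (37.7 CPM), Slc22a28 (0.8699 CPM) and Slco1a1 (13.4 CPM) and the lowest of its group in Ghr (476 CPM). XX Te mouse 1 was the highest of its group in Cyp2b9 (477 CPM), Hao2 (16.2 CPM), Stat5b (59.7 CPM) and Sult2a5 (0.424 CPM). XX Te mouse 2 was the highest of its group in Ctsc (172 CPM), Gbp3 (21.6 CPM) and Ifi44 (11.03 CPM). XX Te mouse 5 was the highest of its group in C4a (77.4 CPM) and Lcn13 (13.6 CPM). XX Ov mouse 1 was the highest of its group in Sult3a2 (23.9 CPM). XX Ov mouse 3 was the highest of its group in Apoa4 (243 CPM). XX Ov mouse 5 was the highest of its group in Ifit1 (116 CPM). XX Ov mouse 6 was the lowest of its group in Srd5a1 (8.47 CPM). XX Te mouse 3 was the highest of its group in Acot3 (82.1 CPM). XX Te mouse 6 was the highest of its group in Cyp4a12a (101 CPM). The values of XX Te mouse 4 include 2 Y-linked genes, and its other 10 genes were all called higher with ovaries. The source of its Y-linked reads was not tested.

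Over all genes tested, the interaction of gonad and GDX in XX mice called 144 of 15414 (0.934%). Many of the 117 genes were named for their intact difference, which is part of this interaction, and some for the interaction itself. The count among them can therefore not be read against that share. The difference between ovaries and testes in XX mice differed between intact and GDX mice, which also differ in weeks of HFD and in their libraries, in 45 of the 117 genes (interaction called by edgeR). In 21 the log2 difference was more positive in intact than in GDX mice, by 8.71 for Sult2a5, 8.52 for Sult2a2, 8.19 for Sult2a1, 8.08 for Sult2a3, 6.702 for Sult3a1, 6.09 for Cyp2c69, 5.98 for Cyp2c40, 5.73 for Sult3a2, 5.33 for A1bg, 4.99 for Cyp3a44, 4.95 for Cux2, 4.78 for Cyp2b13, 4.31 for Slc22a26, 3.54 for Hamp2, 3.48 for Hao2, 3.22 for Cyp2a4, 2.85 for 1700055N04Rik, 2.25 for Slc22a27, 1.61 for Fmo2, 1.14 for Prlr and 1.003 for Apom. In 24 genes it was more negative in intact mice, and the interaction was -8.23 for Cyp4a12b, -7.702 for Cidea, -7.38 for Cyp4a12a, -4.89 for Slco1a1, -4.01 for Mup20, -3.79 for Elovl3, -3.72 for Serpina1e, -3.304 for Cidec, -3.15 for Mup21, -2.85 for 2610305D13Rik, -2.71 for Fbf1, -2.598 for Cyp2d9, -2.47 for C4a, -2.28 for Bcl6, -1.703 for C6, -1.64 for Pfkfb3, -1.58 for Alas2, -1.32 for Srd5a1, -1.25 for Fitm1, -0.96 for Cyp4a32, -0.90 for Abcg2, -0.76 for Fmo5, -0.74 for Scp2 and -0.60 for Rassf3.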

How the results depend on the processing

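The number of genes called between XX Ov and XX Te (344) was 528 with DESeq2's Wald test, 187 with at least 10 reads in every mouse, 897 with all 48 mice in the fit, 651 with 1 surrogate variable, 200 without XX Te mice 4 and 5, 136 when tested against a fold of 1.5, 1875 at an unadjusted p under 0.05 and 524 without XX Te mouse 2; leaving out 1 mouse at a time gave 273 to 524. The share of called genes higher with ovaries was 48.5%, but 62.3% with 48 mice and 59.4% without XX Te mouse 2. The XY count (1070) was 656 without a filter, 663 with at least 10 reads, 2394 with 48 mice and 2562 with 1 surrogate variable, and 524 to 1185 with 1 mouse left out (524 and 533 without XY Te mice 4 and 2, and 636, 583 and 574 without XY Ov mice 4, 5 and 6). The XX GDX count (9) was 38 with DESeq2's Wald test and 3 to 21 with 1 mouse left out, being 3 without former XX Ov mouse 6, 4, 5 and 5 without former XX Te mice 4, 2 and 5, and 21 without former XX Te mouse 3. The interaction with GDX (144) was 235 with DESeq2's Wald test, 91 without a filter and 80 with at least 10 reads, and 97 to 261 with 1 mouse left out (highest without intact XX Ov mouse 3). The filter of at least 10 reads in every mouse left genes with fewer reads in any mouse untested (11759 genes tested in the intact fit, against 14322). Genes nearly absent from a group could therefore not be called under it. The interaction with chromosomes called 0 genes under each alternative run. The Pnpla3 difference ranged from 0.558 to 1.04 CPM with 1 mouse left out. The alternatives on transcript length and GC content, without XX Ov mice 1, 2 and 6 and without XX Te mouse 2 were chosen after seeing the data, and with length and GC offsets 426 genes were called, 280 of them among the 344, while 163 of the 252 called without XX Ov mice 1, 2 and 6 were. The cause of these shifts was not tested.

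Of 96 called genes selected for description, 53 stayed called in each alternative in which they were tested (21 in all 30, the other 32 in 26 to 29) and 43 lost the call in at least 1, with no change of sign. Of 45 genes selected and tested but not called, 16 were called in at least 1 alternative. These alternatives include the one at an unadjusted p under 0.05. No paired analysis was possible because each mouse gave 1 library and no number in the labels links mice of different groups. Intact and GDX mice differ in weeks of HFD and in their libraries as well as GDX, the Sry transgene comes with the testes, and single-copy estimates within the Sult2a, Cyp3a, Cyp4a12, Cyp2c and Mup families rest on how reads were assigned. Depth limits genes near 3 reads.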

Other observations

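Of the 344 genes called between XX Ov and XX Te, 8 had the opposite sign in intact XY mice, and none of these was called in XY mice. Chosen after their values were seen, they were Atp10d, Limk1, Marveld2, S1pr1, Tgfbr2, Themis and 2 genes without a symbol. S1pr1, a sphingosine-1-phosphate receptor, differed by 0.54 in XX and -0.10 in XY mice on the log2 scale, Tgfbr2, a TGF-beta receptor, by -0.83 in XX and 0.13 in XY mice, and Themis, a T cell gene, by -2.83 in XX and 0.15 in XY mice. Unadjusted p-values of their interaction by edgeR ran from 0.000611 to 0.0126 and the adjusted value was 0.999957 for each, so that a difference between the backgrounds was not shown.

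Tmem19, Rassf3 and Fam19a2, which were called after GDX in XX and in XY mice, are all on chromosome 10. In RefSeq's gene order they lie in this sequence within a stretch of 186 genes, of which 39 were tested. Of these, 5 were called in intact XX mice (Tmem19, Slc35e3, Rassf3, Avpr1a and Fam19a2) and 3 in XX GDX mice, where the share of called genes was 2.4% and 0.0606% over all genes tested and 2.68% and 0.467% over chromosome 10. The neighbourhood was noticed after the values were seen, and no test was made of it.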
